A study of Homo sapiens with 12 samples.

Results

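The 47 genes described here are the nuclear genes named for respiratory complex I: every symbol of the 2 count tables that begins with NDUF, apart from 5 symbols for antisense, readthrough or pseudogene transcripts. They are 47 of the 28008 genes in each table, and they divide by name into 39 subunit genes (NDUFA, NDUFB, NDUFC, NDUFS and NDUFV) and 8 assembly factor genes (NDUFAF). All 47 had enough counts to be tested in every comparison. The mitochondrially encoded subunits were not analysed here, since 0 of the ND genes are in the tables.

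The RNA came from a pair of established human lines of pancreatic neuroendocrine tumors, QGP-1 and BON-1, that carry tet-MUC1shRNA, a hairpin against MUC1 that doxycycline (DOX) switches on. Each line was grown in its own medium and was treated for 7 days with either 0.1% DMSO vehicle or 500 ng/mL DOX, and 3 libraries were sequenced in each of the 4 groups. All 12 libraries carry the hairpin and no library of DOX with a control hairpin was analysed here, so the hairpin and DOX itself cannot be told apart, and DOX is a tetracycline, a class known to inhibit protein synthesis in mitochondria. With DOX the target MUC1 had a log2 fold change of −2.91 in QGP-1 (SE 0.226) and −2.79 in BON-1 cells (SE 0.218).

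Complex I takes electrons from NADH, passes them to ubiquinone and pumps protons across the inner mitochondrial membrane. Its N module binds NADH, its Q module binds ubiquinone, and its membrane arm, with a proximal and a distal part, moves the protons. Accessory subunits surround a catalytic core, and assembly factors bring the modules together or modify subunits without staying in the finished enzyme.

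Totals per library ran from 38224144 to 50525926 counts for QGP-1 and from 15981954 to 28484324 for BON-1. Levels are given as CPM, counts divided by a library total that is scaled by TMM over the 12 libraries, and fold changes as log2 of DOX over vehicle from edgeR's quasi-likelihood test, with p-values adjusted by Benjamini-Hochberg over all genes tested. A gene is called at an adjusted p below 0.05. Of 10 neuroendocrine markers, 10 were detected in QGP-1 cells, while NCAM1 stayed at 0.113 CPM or less in BON-1 cells. Summed markers of stromal and blood cells came to 3.12 to 5.42 CPM, without TMM, in QGP-1 libraries. In BON-1 cells this sum was 30.6 to 34.7 with vehicle and 59.6 to 64.1 with DOX, almost all of it CD68 and LUM. The neuroendocrine sum there was 12295 to 14996 with vehicle and 9238 to 9701 with DOX. Its markers did not move together, since CHGA, SYP and PCSK1 were called lower and SCG2, SCG3 and SCGN higher. CHGA alone ran from 2677 to 9224 CPM, without TMM, over the BON-1 libraries. The part of these shifts in the results below was not tested. Replicate libraries were compared by the chi-square of their counts, averaged over genes. QGP-1 DOX replicate 1 stood apart (28.3 and 29.7 against 11.4 for the other pair), as did QGP-1 vehicle replicate 3 (24.8 and 20.3 against 8.48), BON-1 DOX replicate 3 (22.5 and 17.2 against 7.25) and BON-1 vehicle replicate 1 (18.14 and 11.97 against 5.92).

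In QGP-1 cells the called subunit transcripts were all lower with DOX and no NDUFAF transcript was called. Of the 39 subunits, 20 were called lower and 0 higher, against 17.7% and 17.3% of all genes tested, and a further 5 subunits, each with a negative value, had an unadjusted p under 0.05 without a call. At that unadjusted level 0 subunits were higher, and DESeq2 also called 0 higher. For the NDUFAF genes 0 of 8 were called by edgeR in either direction, 0 had an unadjusted p under 0.05 and DESeq2 called 0 too. The median log2 fold change was −0.31 over the subunits, −0.00 over the NDUFAF genes and −0.01 over all genes tested. With the deposited TPM values, whose scaling moves the median of all genes to 0.59, the subunit median reverses to 0.40 and lies 0.20 under that of all genes, with 35 of 38 subunits below it. Removing the trend of counts with transcript length over all genes left 9 subunits lower and 1 higher. Of all 15089 genes tested, 2305 were then lower and 2282 higher. This removal moved the subunit median to −0.10 and called 2 NDUFAF genes higher. Without DOX replicate 1 or vehicle replicate 3, the libraries that stood apart, 23 and 17 subunits were lower.

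Summed over the 39 subunits, the level in QGP-1 cells was 2546, 2600 and 2827 CPM in the vehicle libraries and 2195, 1956 and 2158 CPM in the DOX libraries, which do not overlap. The 8 NDUFAF genes together gave 173, 180 and 195 CPM with vehicle and 185, 175 and 191 CPM with DOX. Thus the subunit sum separated the treatments in this line and the assembly factor sum did not. In bulk RNA, fewer cells that carry a transcript and less of it per cell cannot be told apart.

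**Figure D1:**
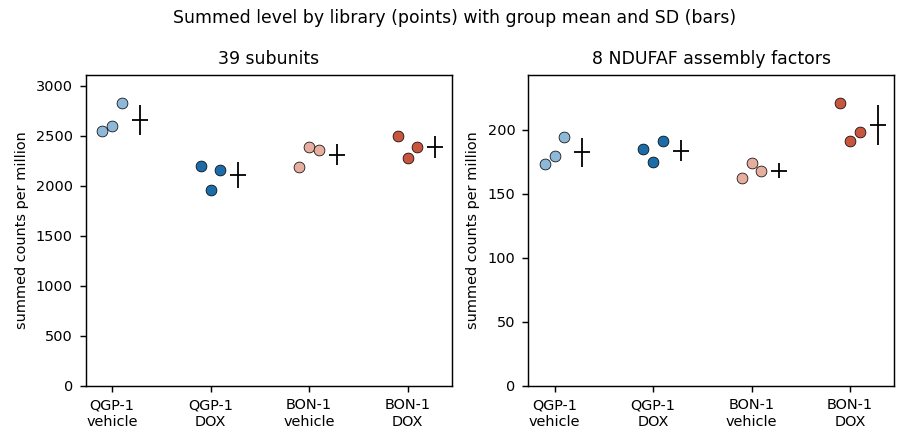
Summed level of the 39 subunit genes (left) and the 8 NDUFAF genes (right) in CPM, with 1 point per library and the group mean and SD beside it (n = 3). The subunit sum averages 2658 with vehicle and 2103 with DOX in QGP-1 cells and 2311 and 2388 in BON-1 cells, while the NDUFAF sum is 168 with vehicle and 204 with DOX in BON-1 cells. NDUFA4, part of the subunit sum, averages 349 with vehicle and 518 with DOX in BON-1 cells.

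The counts of called subunits in BON-1 cells were near the share of all genes. There, 8 of 39 subunits were called lower and 5 higher, against 18.3% and 17.0% of all genes tested, and the subunit median was −0.13 against −0.01 for all genes. The summed subunit level overlapped between groups, at 2189, 2391 and 2352 CPM with vehicle and 2499, 2279 and 2386 CPM with DOX. This sum includes NDUFA4, now placed in cytochrome c oxidase, which averaged 349 CPM with vehicle and 518 CPM with DOX. The sum without NDUFA4 was not analysed here, so the sum does not show a rise of the other subunits. Of the NDUFAF genes 2 were called higher and 1 lower, 6 of 8 had a positive value and the median was 0.24. Their sum was 162, 174 and 168 CPM with vehicle and 221, 191 and 199 CPM with DOX, with every DOX library above every vehicle library. Without vehicle replicate 1, 3 subunits were higher and 1 NDUFAF gene was called.

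Beside these calls stand the counts of genes whose libraries did not overlap. In QGP-1 cells 23 of 39 subunits had all DOX libraries below all vehicle libraries and 0 had them above, where 23.3% of all genes tested lay below and 23.4% above. All 8 NDUFAF genes overlapped in that line. In BON-1 cells 12 subunits lay below and 7 above, and 4 NDUFAF genes lay above and 1 below, where the shares of all genes were 23.0% below and 22.8% above.

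**Figure D2:**
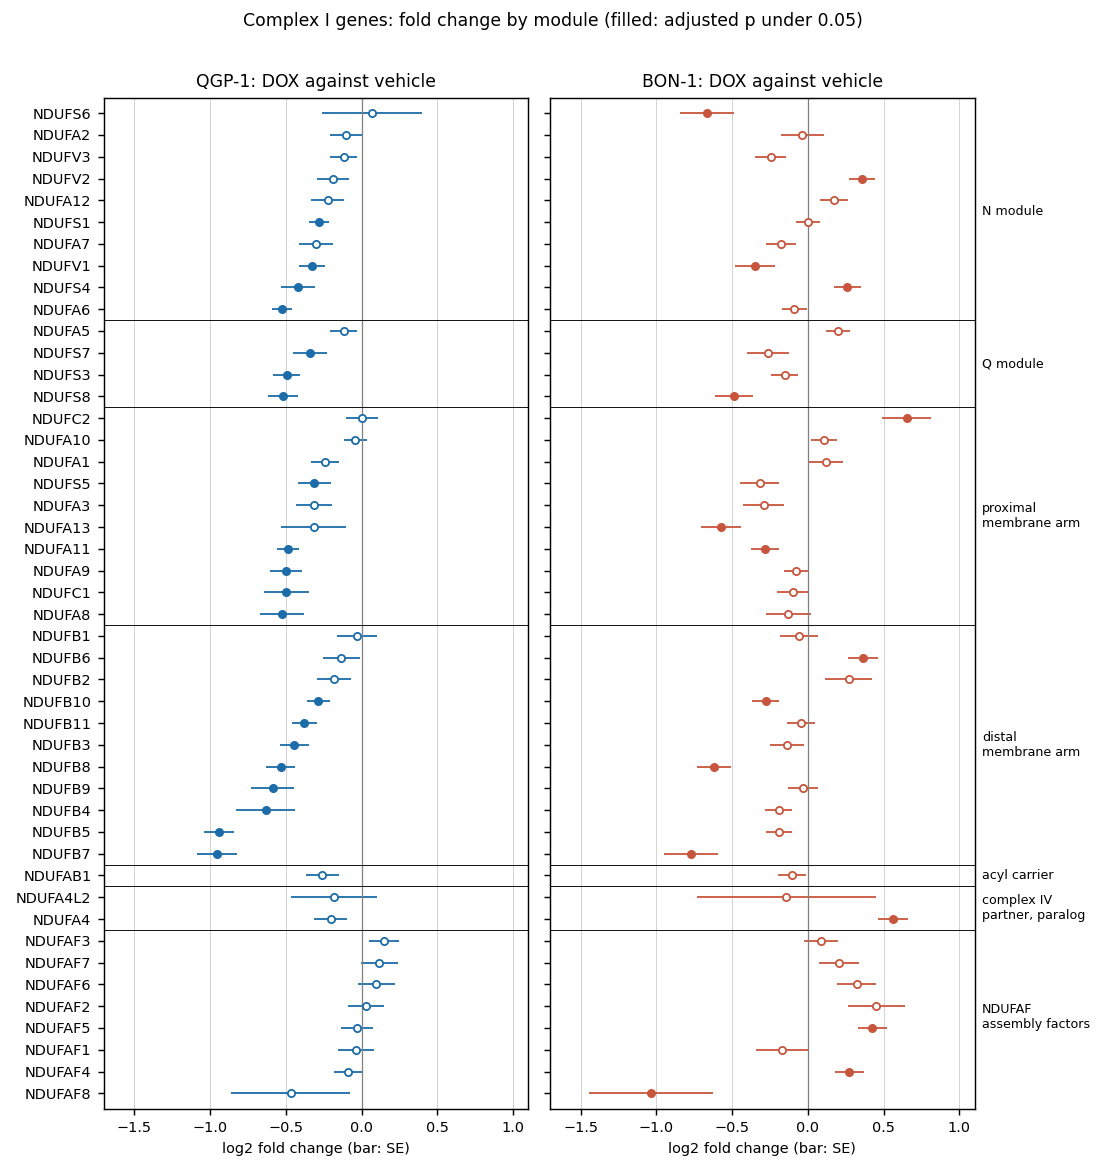
Log2 fold change of DOX against vehicle for 46 of the 47 genes in QGP-1 cells (left) and BON-1 cells (right), ordered by module, with bars for the standard error and filled points for an adjusted p below 0.05. In QGP-1 cells 36 of the 38 subunits plotted lie left of 0 on this scale, though the TPM scale turns most of them, whereas the NDUFAF genes lie on both sides.

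Among the 7 core subunits, which carry the flavin and the iron-sulfur clusters or form the ubiquinone site, 5 were called lower in QGP-1 cells with a median of −0.33. NDUFS8, an iron-sulfur protein of the Q module, was at 42.8, 39.2 and 36.2 CPM with vehicle and 24.7, 29.3 and 28.4 with DOX (log2 fold change −0.52, SE 0.10, adjusted p = 0.00097). Its BON-1 levels were 20.9, 19.0 and 18.8 CPM with vehicle and 13.6, 14.2 and 14.4 with DOX (−0.49, SE 0.13, adjusted p = 0.0030). NDUFS8 therefore separated the groups without overlap in each line, and its calls held without any single library, but the QGP-1 call was lost with the length trend removed (−0.25) and the BON-1 call with the GC trend removed (−0.23).

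NDUFV1, the subunit that binds NADH and the flavin, was lower in both lines as well. In QGP-1 cells it went from 74.2, 72.4 and 63.1 CPM to 58.7, 54.3 and 54.0 (−0.33, SE 0.08, adjusted p = 0.0073). It went in BON-1 cells from 22.2, 24.1 and 23.0 CPM to 18.6, 21.6 and 14.5 (−0.35, SE 0.13, adjusted p = 0.039), and this second call was lost on leaving out any library but DOX replicate 2, with values from −0.39 to −0.22. With the length trend removed neither call held (−0.17 and −0.26).

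NDUFV2, the iron-sulfur partner of NDUFV1, behaved otherwise in BON-1 cells. Its level there was 57.9, 63.9 and 58.0 CPM with vehicle and 80.6, 72.0 and 79.3 with DOX, all DOX libraries above (0.36, SE 0.09, adjusted p = 0.0015). In QGP-1 cells its libraries overlapped at 90.2 to 116 CPM with vehicle and 76.8 to 98.5 with DOX (−0.19, adjusted p = 0.18). Of its transcript, 90.0% also lies in an unnamed gene on the same strand, so its counts could include or miss reads of that gene.

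Further core subunits were called in QGP-1 cells and not in BON-1 cells, and their differences between the lines were not called. NDUFS3 and NDUFS7 of the Q module had values of −0.50 and −0.34 in QGP-1 cells, called lower, and of −0.15 and −0.26 in BON-1 cells, not called. NDUFS1, the largest iron-sulfur protein of the N module, was called lower in QGP-1 cells at −0.28 and had 0.00 in BON-1 cells. The NDUFS7 call was lost without QGP-1 vehicle replicates 1 or 2 or DOX replicates 1 or 3, with values from −0.38 to −0.24, and 51.3% of its transcript lies opposite other genes.

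Of the N module accessory subunits, NDUFS4 is the 1 member called in opposite directions in the 2 lines. This subunit stabilises the N module, and its loss is a known cause of Leigh syndrome. In QGP-1 cells its level was 43.7, 50.5 and 59.1 CPM with vehicle and 43.0, 34.3 and 37.1 with DOX (−0.42, SE 0.11, adjusted p = 0.010). Its BON-1 level was 42.7, 45.6 and 40.0 CPM with vehicle and 51.6, 51.4 and 51.7 with DOX (0.26, SE 0.09, adjusted p = 0.024). The difference between the lines was 0.69 (SE 0.15, adjusted p = 0.0021) and was called without each library in turn, whereas the BON-1 rise alone was lost without vehicle replicates 1 or 3 or DOX replicates 1 or 2, at 0.21 to 0.25. The QGP-1 call was lost with the length trend removed (−0.18) and the BON-1 call with the GC trend removed (0.20).

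NDUFA6 and NDUFS6, both of the N module, were each called in 1 line, and the difference between the lines was called for NDUFA6 (0.45) but not for NDUFS6 (−0.72, adjusted p = 0.25). NDUFA6, which docks the acyl carrier protein, was at 103, 101 and 104 CPM in QGP-1 vehicle libraries and at 69.4, 71.6 and 73.2 with DOX (−0.52, SE 0.07, adjusted p = 5.83e-05). In BON-1 cells it overlapped, at 73.4 to 76.4 CPM with vehicle and 66.3 to 75.9 with DOX (−0.09, adjusted p = 0.43). NDUFS6, a zinc-binding subunit, was called lower in BON-1 cells (−0.66, SE 0.18, adjusted p = 0.0044), from 16.8, 13.5 and 9.50 CPM to 8.73, 9.42 and 7.31, and this call was lost without vehicle replicate 1 (−0.46). In QGP-1 cells it was at 2.38, 6.86 and 9.05 CPM in the DOX libraries, which spread on both sides of the vehicle range of 4.70 to 6.48 (0.07, SE 0.33). NDUFA2, NDUFA7, NDUFA12 and NDUFV3 were called in neither line.

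The Q module accessory subunit NDUFA5 was not called in either line, with −0.12 and 0.20. Its symbol has 12 pseudogenes in the annotation, which could share reads with it.

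In the proximal membrane arm, 5 of 10 subunits were called lower in QGP-1 cells with a median of −0.32, and 2 lower and 1 higher in BON-1 cells. NDUFA11, a membrane subunit at the base of the arm, was at 131, 122 and 121 CPM with vehicle and 83.4, 91.6 and 92.3 with DOX in QGP-1 cells (−0.48, SE 0.07, adjusted p = 0.00017). In BON-1 cells it was at 66.0, 83.1 and 80.3 CPM with vehicle and 64.8, 62.1 and 63.0 with DOX (−0.28, SE 0.09, adjusted p = 0.017). The BON-1 groups are separated narrowly, and the call there was lost without vehicle replicates 2 or 3 (−0.23 and −0.25) and with the GC trend removed (−0.05). Of the NDUFA11 transcript, 68.2% also lies in an unnamed gene on the same strand, so its counts could include or miss reads of that gene.

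NDUFC2 gave the largest rise among the subunits in BON-1 cells. Its level was 7.77, 8.97 and 6.73 CPM with vehicle and 12.6, 11.1 and 13.5 with DOX (0.65, SE 0.16, adjusted p = 0.0023), and 21.5, 22.8 and 21.2 CPM against 20.8, 19.6 and 25.1 in QGP-1 cells (0.00, SE 0.11). It shares 19.7% of its transcript with the readthrough gene NDUFC2-KCTD14, whose counts were kept apart here. NDUFA13, a proximal arm subunit also known as GRIM-19, was called lower in BON-1 cells from 43.4, 44.2 and 43.5 CPM to 33.4, 34.8 and 20.5 (−0.57, SE 0.13, adjusted p = 0.0010). In QGP-1 cells its DOX libraries ran from 29.3 to 73.7 CPM around a vehicle range of 60.4 to 70.0 (−0.32, SE 0.22, adjusted p = 0.28). Of the NDUFA13 transcript, 83.9% also lies in an unnamed gene on the same strand, with the same limit on its counts.

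NDUFA9, NDUFA8, NDUFC1 and NDUFS5 completed the proximal arm calls in QGP-1 cells, at −0.50, −0.53, −0.50 and −0.31. None of these was called in BON-1 cells, where their values were −0.08, −0.13, −0.10 and −0.32. The NDUFC1 call was lost without vehicle replicate 3 or DOX replicate 2, and the NDUFS5 call without any vehicle library or DOX replicate 2 (−0.19).

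The distal membrane arm had the most negative median of the 4 modules in QGP-1 cells, at −0.44. There 8 of its 11 subunits were called lower, while 3 fell and 1 rose in BON-1 cells. NDUFB7, a subunit of the intermembrane space side, was at 16.1, 16.0 and 14.5 CPM with vehicle and 6.65, 9.13 and 8.27 with DOX in QGP-1 cells (−0.95, SE 0.13, adjusted p = 9.68e-05). It was at 11.0, 10.4 and 10.2 CPM with vehicle and 7.12, 6.62 and 4.94 with DOX in BON-1 cells (−0.77, SE 0.18, adjusted p = 0.0011). NDUFB7 was the subunit with the most negative value in both lines, and no single library decided either call.

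NDUFB5 had nearly the same fall in QGP-1 cells and not in BON-1 cells. It was at 123, 139 and 162 CPM with vehicle and 76.8, 65.1 and 78.7 with DOX in QGP-1 cells (−0.94, SE 0.10, adjusted p = 1.34e-05). In BON-1 cells it was at 173, 199 and 213 CPM with vehicle and 186, 161 and 170 with DOX, which overlap (−0.19, adjusted p = 0.085). The difference between the lines was 0.76 (SE 0.14, adjusted p = 0.00043).

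NDUFB8, a subunit often used as a protein marker of assembled complex I, was lower in both lines. In QGP-1 cells it was at 34.2, 34.9 and 34.2 CPM with vehicle and 21.0, 23.7 and 26.6 with DOX (−0.54, SE 0.10, adjusted p = 0.00084). Its BON-1 level was 58.2, 59.8 and 55.4 CPM with vehicle and 43.0, 41.5 and 28.9 with DOX (−0.62, SE 0.11, adjusted p = 7.44e-05). Of its transcript, 72.0% overlaps a same-strand readthrough or unnamed gene. NDUFB10 was called lower in both lines at −0.29 and −0.28, and each call was lost without 1 library, QGP-1 vehicle replicate 1 and BON-1 DOX replicate 3.

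The remaining distal arm subunits called lower in QGP-1 cells were NDUFB9 (−0.59), NDUFB4 (−0.63), NDUFB3 (−0.44) and NDUFB11 (−0.38). The NDUFB4 call rests on 2 DOX libraries at 24.5 and 26.9 CPM, since the DOX replicate 1 value of 49.3 lies within the vehicle range of 48.3 to 59.5, and it was lost without vehicle replicate 3 or DOX replicates 2 or 3. NDUFB4 has 12 annotated pseudogenes. NDUFB6 was the distal arm subunit that rose in BON-1 cells, from 40.0, 51.6 and 50.1 CPM to 63.0, 56.2 and 64.4 (0.37, SE 0.10, adjusted p = 0.0048), a call lost without vehicle replicate 1 (0.25). NDUFB1 and NDUFB2 were called in neither line.

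**Figure D3:**
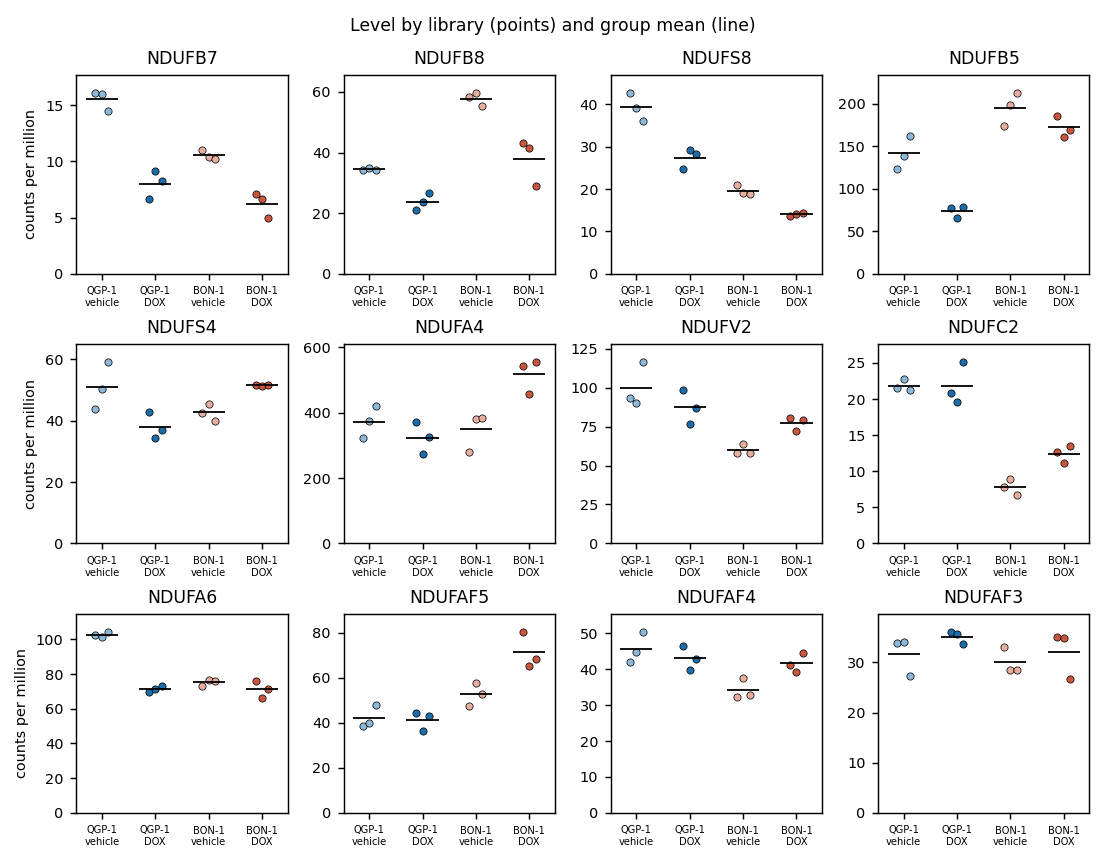
Level of 12 complex I genes in CPM by library, with 1 point per library, a line at the mean of 3, and an axis from 0 in each panel. NDUFB7, NDUFB8 and NDUFS8 fall with DOX in both lines on this scale, NDUFS4 moves in opposite directions, NDUFA4, NDUFV2, NDUFC2, NDUFAF4 and NDUFAF5 rise in BON-1 cells, and NDUFB5 and NDUFA6 fall in QGP-1 cells by the calls of each line. The difference between the lines was not called for NDUFAF4 (0.37, adjusted p = 0.066).

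NDUFAB1, the mitochondrial acyl carrier protein that is both a subunit and part of fatty acid synthesis, was called in neither line (−0.26 and −0.10). NDUFA4, named with complex I but now placed in cytochrome c oxidase, rose in BON-1 cells from 281, 380 and 385 CPM to 543, 458 and 555 (0.56, SE 0.10, adjusted p = 5.87e-05). In QGP-1 cells it overlapped, at 324 to 420 CPM with vehicle and 273 to 372 with DOX (−0.20, adjusted p = 0.16). NDUFA4L2, its hypoxia-induced paralog, was near the detection limit, at 8 to 26 counts per BON-1 vehicle library and 57 to 81 per QGP-1 vehicle library, and was not called with DOX. Without NDUFA4 and NDUFA4L2 the subunit medians were −0.31 and −0.13.

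The assembly factors were not called in QGP-1 cells, with values from −0.47 for NDUFAF8 to 0.15 for NDUFAF3. In BON-1 cells NDUFAF5, which hydroxylates the core subunit NDUFS7, was at 47.6, 57.7 and 52.7 CPM with vehicle and 80.4, 65.1 and 68.1 with DOX (0.43, SE 0.10, adjusted p = 0.00097). This rise was called without each library in turn. NDUFAF4, which works with NDUFAF3 on the Q module, was at 32.2, 37.6 and 32.7 CPM with vehicle and 41.2, 39.2 and 44.4 with DOX (0.27, SE 0.10, adjusted p = 0.030), a call lost without vehicle replicates 1 or 3 or DOX replicates 1 or 3.

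NDUFAF8, the partner of NDUFAF5, went the other way in BON-1 cells on few counts. It had 79, 38 and 41 counts with vehicle and 26, 9 and 24 with DOX (−1.03, SE 0.41, adjusted p just inside the threshold at 0.04996), and the call was lost without vehicle replicates 1 or 3 or DOX replicates 2 or 3. NDUFAF2, a relative of NDUFA12 that takes its place during assembly, had 0.45 (adjusted p = 0.063) and NDUFAF6 had 0.32 (adjusted p = 0.051), with all DOX libraries above all vehicle libraries for both and no call. NDUFAF1, which serves the membrane arm, NDUFAF3, which serves the Q module, and NDUFAF7, a methyltransferase, had −0.17, 0.09 and 0.21 and overlapping libraries.

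Other assembly factors, listed from general knowledge under other names, were counted next to the NDUFAF genes. The shares of all genes called lower and higher, 17.7% and 17.3% in QGP-1 and 18.3% and 17.0% in BON-1 cells, hold for these counts as well. Of 13, 4 were called lower and 0 higher in QGP-1 cells (0 higher with DESeq2 or unadjusted) with a median of −0.25, and 2 lower and 2 higher in BON-1 cells with a median of −0.02. TIMMDC1, a membrane arm assembly factor, was lower in both lines (−0.73 and −0.63, adjusted p = 0.00059 and 0.00022), and so was FOXRED1 (−0.63 and −0.62, adjusted p = 0.00060 and 0.0077). DMAC1 and NUBPL were the others called lower in QGP-1 cells, and TMEM126B (0.73) and TMEM70 (0.36) were called higher in BON-1 cells. Assembly factors named NDUFAF and those named otherwise thus gave different counts in QGP-1 cells, and the difference between the 2 lists was not tested.

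Genes around complex I were counted too, against the same 17.7% lower and 17.3% higher of all genes in QGP-1 and 18.3% and 17.0% in BON-1 cells. Of 34 subunits of complexes III and IV and ATP synthase, 28 were called lower and 0 higher in QGP-1 cells with a median of −0.45, and 13 lower and 3 higher in BON-1 cells with a median of −0.15. For 10 genes that feed ubiquinone without complex I, 5 were lower in QGP-1 cells, among them SDHB, SDHC and SDHD of complex II, and 1, SDHD, was higher in BON-1 cells. In QGP-1 cells the calls in these lists thus lay on the lower side, as those of the complex I subunits did, and DESeq2 called 0 of either list higher. Of 14 regulators of respiratory genes tested, 2 fell and 1 rose in QGP-1 cells, and 2 fell and 0 rose in BON-1 cells, where 1 was higher at an unadjusted p under 0.05 and DESeq2 called 0. PPARGC1A, a coactivator of mitochondrial biogenesis, was called lower in QGP-1 cells (−0.33, adjusted p = 0.014) and had 0.22 in BON-1 cells (adjusted p = 0.067). Its difference between the lines was 0.57 (adjusted p = 0.0062). The other calls were GABPA lower (−0.21) and PPRC1 higher (0.36) in QGP-1 cells, and PPARGC1B (−0.81) and TFB2M (−0.31) lower in BON-1 cells. That of TFB2M was just inside the threshold (adjusted p = 0.0486). For PPARGC1B the difference between the lines was −0.96 (adjusted p = 0.0018), opposite in sign to that of PPARGC1A. With vehicle, PPARGC1B was much lower in BON-1 than in QGP-1 cells (log2 fold change −3.66, SE 0.13), and its BON-1 response had an SE of 0.29.

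The difference of the DOX response between the lines was tested in 1 fit of the 12 libraries. Of the 47 genes, 10 responded more positively in BON-1 than in QGP-1 cells and 0 more negatively, against 8.8% and 7.92% of all genes tested. 0 of the 47 had a negative difference at an unadjusted p under 0.05, and DESeq2 called 0. The 10 are NDUFA4, NDUFA6, NDUFA9, NDUFB5, NDUFB6, NDUFB9, NDUFC2, NDUFS4 and NDUFV2 among the subunits, and NDUFAF5. Their differences run from 0.43 for NDUFA9 to 0.78 for NDUFA4 (adjusted p = 0.0020). For NDUFA4, NDUFA6, NDUFB5, NDUFS4 and NDUFV2 the call held in each of the 12 fits that left out 1 library. The number of subunits called was 14 without QGP-1 DOX replicate 1 and 5 without QGP-1 DOX replicate 2 or BON-1 vehicle replicate 1, in place of 9. Of the 6 subunits lower in both lines, NDUFA11, NDUFB7, NDUFB8, NDUFB10, NDUFS8 and NDUFV1, 0 were called different by edgeR, by DESeq2 or at an unadjusted p under 0.05, with differences from −0.08 to 0.21 and standard errors from 0.12 to 0.22. These 6 were chosen by calls in the same direction from the same libraries, which favours small differences. This count therefore cannot show that the lines respond alike.

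The promoters of the 6 subunits lower in both lines and of NDUFS4, called in opposite directions, are shown because these members were called in both lines. NDUFS6 and NDUFS7 are shown as examples with the NRF1 core, picked after the matches were seen. The other subunits that hold it, NDUFA8 and NDUFB4, are not shown. Each is the 150 bases before the gene's start in RefSeq on GRCh38.p14, 5′ to 3′ on the strand of the gene, with capitals for any match to 4 short motifs on either strand, which are the cores bound by NRF1, ETS factors such as GABP and YY1, and the E-box.
NDUFA11 (chr19:5903791-5903940, minus strand): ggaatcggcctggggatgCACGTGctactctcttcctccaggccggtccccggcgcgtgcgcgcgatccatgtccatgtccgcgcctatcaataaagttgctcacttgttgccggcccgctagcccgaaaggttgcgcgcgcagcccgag
NDUFB7 (chr19:14572067-14572216, minus strand): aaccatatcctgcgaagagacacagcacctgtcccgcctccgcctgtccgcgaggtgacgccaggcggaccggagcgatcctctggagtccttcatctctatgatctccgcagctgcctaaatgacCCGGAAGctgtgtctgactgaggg
NDUFB8 (chr10:100529924-100530073, minus strand): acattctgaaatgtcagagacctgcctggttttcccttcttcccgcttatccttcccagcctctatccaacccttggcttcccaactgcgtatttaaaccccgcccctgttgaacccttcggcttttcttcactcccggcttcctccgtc
NDUFB10 (chr16:1959388-1959537, plus strand): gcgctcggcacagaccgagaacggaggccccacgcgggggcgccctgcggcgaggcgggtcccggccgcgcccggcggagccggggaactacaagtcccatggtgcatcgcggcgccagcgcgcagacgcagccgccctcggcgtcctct
NDUFS8 (chr11:68030531-68030680, plus strand): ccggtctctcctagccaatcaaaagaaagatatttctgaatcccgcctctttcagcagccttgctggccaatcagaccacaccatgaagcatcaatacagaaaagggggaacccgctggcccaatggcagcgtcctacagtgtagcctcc
NDUFV1 (chr11:67606786-67606935, plus strand): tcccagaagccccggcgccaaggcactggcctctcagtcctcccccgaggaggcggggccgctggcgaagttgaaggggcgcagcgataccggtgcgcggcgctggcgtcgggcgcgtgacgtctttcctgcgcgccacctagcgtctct
NDUFS4 (chr5:53560489-53560638, plus strand): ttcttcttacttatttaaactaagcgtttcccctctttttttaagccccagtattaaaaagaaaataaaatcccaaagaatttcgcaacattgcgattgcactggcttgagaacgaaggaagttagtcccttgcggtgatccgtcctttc
NDUFS6 (chr5:1801257-1801406, plus strand): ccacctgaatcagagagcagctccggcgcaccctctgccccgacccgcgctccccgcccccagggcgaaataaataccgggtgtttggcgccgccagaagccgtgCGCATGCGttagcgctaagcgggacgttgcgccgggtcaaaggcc
NDUFS7 (chr19:1383757-1383906, plus strand): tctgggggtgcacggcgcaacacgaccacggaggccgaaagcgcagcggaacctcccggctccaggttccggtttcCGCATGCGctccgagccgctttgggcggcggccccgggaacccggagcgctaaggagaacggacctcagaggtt
Of the windows shown, NDUFA11 has an E-box, NDUFB7 has the ETS core 24 bases before its start, and NDUFS6 and NDUFS7 have the NRF1 core 45 and 74 bases before theirs. The windows of NDUFB8, NDUFB10, NDUFS8, NDUFV1 and NDUFS4 hold none of the 4 in these 150 bases. The GC content of the windows runs from 38.7% for NDUFS4 to 78.0% for NDUFB10.

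The motif shares stand in the following comparison of the 39 members with a promoter in the RefSeq table. The NRF1 core CGCATGCG was in 4 of 32 subunit promoters and 1 of 7 NDUFAF promoters, where 2.19% of all 27305 promoters and 3.53% of those of genes tested hold it. The YY1 core AAGATGGCG was in 5 of 32 subunit promoters, which is 15.6%, and 0 of 7 NDUFAF promoters, where 3.55% of tested genes hold it. The shorter core AAGATGG, which was searched before the longer one, was in 7 of 32 subunit promoters and 7.09% of those of tested genes. All 5 matches to the longer core lie 11 to 26 bases after the start, in NDUFA6, NDUFA7, NDUFA9, NDUFS4 and NDUFS7. The ETS core CCGGAAG was in 15.6% of subunit promoters and 17.2% of those of tested genes, and the E-box CACGTG in 9.38% and 9.71%. None of the 4 motifs overlapped another in these promoters by their letters. Among the 17 subunits lower in QGP-1 cells with a promoter, 3 held the NRF1 core, 3 the ETS core, 4 the YY1 core and 2 the E-box. Entries for 8 members, among them NDUFA4, NDUFA4L2, NDUFAF6, NDUFB5, NDUFB9, NDUFC2 and NDUFS5, were not analysed here.

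The subunits that fell and those that rose in BON-1 cells differed in the base composition of their transcripts, which the choice of genes did not use. The 8 called lower had 54.6% to 64.9% GC in the MANE Select transcript, with a median of 61.1%, and the 5 called higher had 39.4% to 44.9%, with a median of 42.9%. These ranges do not overlap, and the 26 not called ran from 34.6% to 66.9%. Over the 47 genes, Pearson's r of the BON-1 log2 fold change with GC was −0.69 and Spearman's rho −0.70, and the same values for QGP-1 were −0.26 and −0.28. These points share the same 6 libraries in each line, and the correlations are a description.

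All genes tested showed such a gradient in BON-1 cells. In 4 bins of equal size from low to high GC, the median over all genes was 0.10, 0.06, −0.03 and −0.21, and in QGP-1 cells 0.00, 0.04, 0.01 and −0.11. With the GC trend of all genes removed, 8 subunits were called lower and 4 higher in BON-1 cells. Over all 14625 genes tested there, 2619 were then lower and 2559 higher. The subunits called were in part different genes. Of the 8 lower calls 4 remained (NDUFA13, NDUFB7, NDUFB8 and NDUFS6), those of NDUFA11, NDUFB10, NDUFS8 and NDUFV1 were lost, and NDUFB4, NDUFB5, NDUFS5 and NDUFV3 were gained. Of the 5 higher calls that of NDUFS4 was lost, and of the 3 NDUFAF calls that of NDUFAF5 remained. In QGP-1 cells 19 of the 20 lower calls remained, all but that of NDUFS7.

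**Figure D4:**
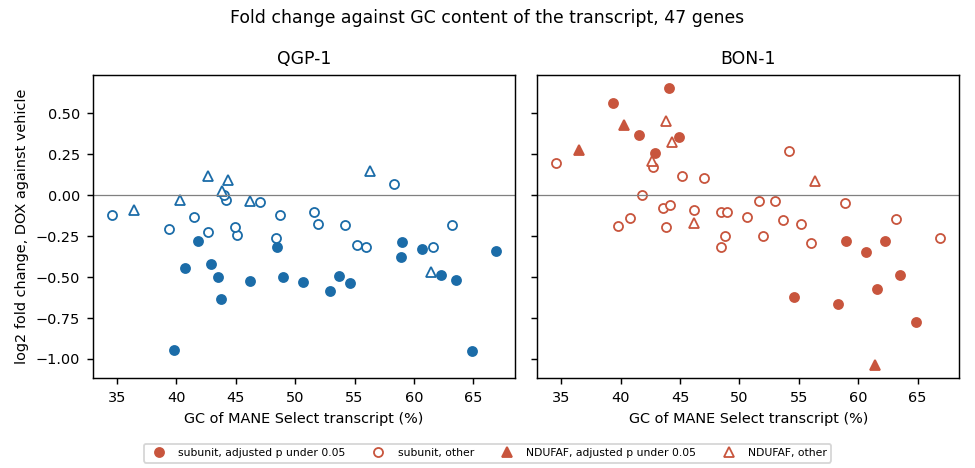
Log2 fold change of DOX against vehicle plotted against the GC content of the MANE Select transcript in percent, for QGP-1 (left) and BON-1 cells (right), with circles for 39 subunits, triangles for 8 NDUFAF genes and filled symbols for an adjusted p below 0.05. In BON-1 cells the called subunits above 0 lie at 44.9% GC or less and those below 0 at 54.6% or more.

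Over all genes tested in QGP-1 cells, the fold change rose with transcript length, taken here as the length implied by the authors' counts and TPM. Over the 39 subunits, the QGP-1 log2 fold change had r = 0.08 and rho = 0.06 with log2 MANE Select length. That is not the length used for the bins and the trend, so these values cannot show how the subunits follow the implied length. Of the 39 subunits, 32 lie in the shortest of 4 bins of equal size among the genes tested in QGP-1 cells, where all genes had a median log2 fold change of −0.18 against 0.15 in the longest bin. The subunits in the shortest bin had a median of −0.32. With the length trend of all genes removed, 8 of the 20 lower calls remained (NDUFA6, NDUFA9, NDUFA11, NDUFB5, NDUFB7, NDUFB8, NDUFS1 and NDUFS3), 12 were lost and that of NDUFA10 was gained. NDUFB1 (0.43) and the assembly factors NDUFAF2 (0.32) and NDUFAF3 (0.30) were then called higher. In BON-1 cells the bin medians ran from −0.09 to 0.07, and the subunit median without the trend was −0.04. The part of length in these results beyond the values given was not tested.

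**Figure D5:**
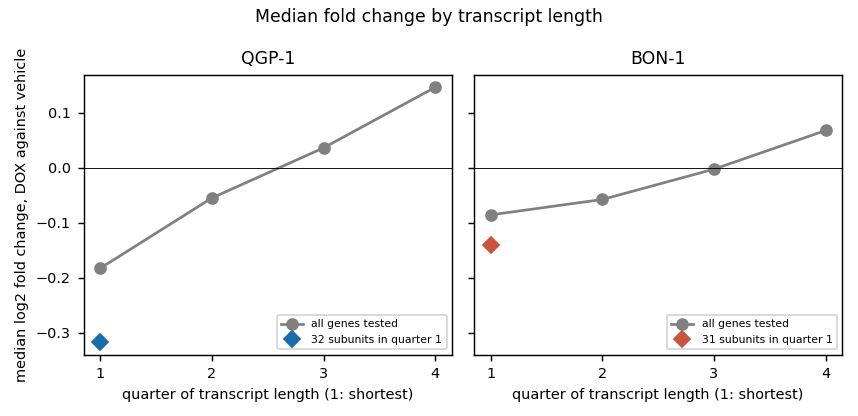
Median log2 fold change of all genes tested in 4 bins of transcript length (grey) and of the subunits in the shortest bin (diamond), for QGP-1 (left) and BON-1 cells (right). The length is the one implied by the authors' counts and TPM. In QGP-1 cells the grey line goes from −0.18 to 0.15 and the 32 subunits lie at −0.32, while in BON-1 cells it goes from −0.09 to 0.07 and the 31 subunits lie at −0.14.

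Reads that could belong to other genes were set aside in a further count. Over the 11 subunits with neither an exon overlap nor an annotated pseudogene, 7 were called lower and 0 higher in QGP-1 cells with a median of −0.42, and 3 lower and 1 higher in BON-1 cells with a median of −0.15. The 7 are NDUFB7, NDUFA6, NDUFS8, NDUFC1, NDUFS3, NDUFS4 and NDUFV1.

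The lines were also compared with vehicle alone. Of the subunits, 22 were lower and 11 higher in BON-1 than in QGP-1 cells, against 37.5% and 37.5% of all genes tested, and cell line, medium and any difference in sequencing cannot be told apart. The core subunits were lower in 5 of 7 cases and higher in 0, also with DESeq2 and at an unadjusted p under 0.05, with a median of −0.74, and the proximal arm was lower in 8 of 10, with a median of −0.64. The N module had 7 of 10 lower and 3 higher, with a median of −0.35, and the Q module 3 of 5 lower, with a median of −0.55. The distal arm had 3 lower, 6 higher and a median of 0.44. The modules were not tested against each other.

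NDUFV1 had the most negative of these differences at −1.60 (SE 0.11, adjusted p = 2.00e-12), with 22.2 to 24.1 CPM in BON-1 and 63.1 to 74.2 CPM in QGP-1 vehicle libraries. NDUFC2 (−1.48), NDUFAF2 (−1.35), NDUFA4L2 (−1.29) and NDUFS8 (−1.01) followed it. The most positive were NDUFS6 (1.21), NDUFA7 (1.01), NDUFB1 (0.90), NDUFB8 (0.75) and NDUFC1 (0.72). Of the NDUFAF genes NDUFAF1, NDUFAF2 and NDUFAF4 were lower in BON-1 cells and NDUFAF5 was higher.

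Per transcript length, subunits can be compared with each other as a share of the summed subunit TPM. With the authors' TPM, NDUFA13 had the highest share in QGP-1 vehicle libraries at 8.15% ± 0.938 (SD, n = 3), followed by NDUFA4 at 6.55% ± 0.550 and NDUFB5 at 5.71% ± 0.515. The ranges of NDUFA4 and NDUFB5 overlap, at 5.935% to 6.999% and 5.19% to 6.22%, while NDUFA4 was above NDUFB5 in 3 of 3 libraries, by 1.13 to 1.17 times. NDUFA13 was above NDUFA4 in 3 of 3, by 1.01 to 1.44 times. With MANE Select lengths in place of the authors', NDUFA11 came at the top at 9.28%, with NDUFA4 at 7.80% and NDUFB11 at 6.83%, so the order depends on the length used. Most of the transcript of NDUFA13 and of NDUFA11 overlaps another gene on the same strand. NDUFA4 was within the highest 4 in vehicle libraries of both lines under either length. In BON-1 cells its share was 6.36% ± 0.896 with vehicle and 9.74% ± 0.933 with DOX (SD, n = 3), and the ranges of 5.34% to 7.03% and 8.89% to 10.7% do not overlap. NDUFA4L2 was at 0.0560% in QGP-1 and 0.0250% in BON-1 vehicle libraries. The NDUFAF genes each stood at 1.07% of the subunit sum or less in vehicle libraries by the authors' TPM.

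Likeness of pattern was taken over the 12 libraries from log2(CPM + 0.5), with the mean of each line subtracted. On this scale NDUFAF4 was most like NDUFV2 (Pearson's r = 0.94), NDUFB6 (0.93) and NDUFA4 (0.92) among the other members. NDUFA4L2 had no close neighbour, with r = 0.41 for NDUFS1, 0.40 for NDUFA10 and 0.33 for NDUFAB1. These libraries share lines and treatments, so the values describe likeness only. Between the lines, the log2 fold changes of the 47 genes had r = 0.51 and rho = 0.52.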

How the data were processed

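Total RNA from triplicate cultures was made into stranded mRNA libraries by the authors, who aligned the reads with STAR to GRCh38 and deposited, for each line, raw counts per gene without normalization and TPM values, in which the counts are divided by a gene length and scaled to the same total. The counting program, its use of strand and its treatment of reads with several matches are not given in the sources used here. The TPM tables hold 25540 and 25544 genes.

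The test was edgeR 4.0.16 under R 4.3.3 on the counts (default filter, TMM, quasi-likelihood fit, Benjamini-Hochberg adjustment over all genes, threshold 0.05) within each line, and for the difference between lines and the vehicle comparison over all 12 libraries, with 15089, 14625 and 16598 genes tested. A standard error is the log2 fold change divided by the square root of F. Genes were grouped by lists written from general knowledge, and the members and lists were chosen with earlier results of these data known. Named genes are the core subunits, all NDUFAF genes, NDUFA4, NDUFA4L2, NDUFAB1, members called between the lines, the 5 most positive and 5 most negative in each comparison, and others where a count is described. A single subunit is counted in the lists and totals but is not reported here by itself.

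Positions, overlaps, pseudogenes, MANE Select lengths and GC come from GENCODE 44 on GRCh38, and promoters (250 bases before to 50 after the start) from RefSeq on GRCh38.p14, matched by symbol for 39 of 47 genes. The alternatives were DESeq2 1.42.0, library size in place of TMM, 2 other filters, a replicate block, 1 fit of both lines, limma 3.58.1 on log2(TPM + 1) of the deposited TPM at a mean of at least 1, the removal of a length trend (loess, span 0.3), a minimum log2 fold change of 0.5 and the loss of each library. Removing a GC trend, or length and GC trends, and shares by MANE Select length were added after seeing the data. The length used for bins and trends is the one implied by the authors' counts and TPM, which differs from MANE Select for several members. The code was tested on simulated data. Replicates are cultures of 1 line, so p-values measure the spread between cultures. Counts were lowest for NDUFA4L2 and NDUFAF8, where counting error matters most. Single libraries of other members were low too, such as NDUFB7 with 98 counts in BON-1 DOX replicate 3 and NDUFS6 with 112 in QGP-1 DOX replicate 1.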

Additional observations from a re-analysis of the deposited data

Results flagged for a closer look

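The DOX response differed between the lines for 10 of the 47 genes in the fit of all 12 libraries (interaction of line and treatment, edgeR's quasi-likelihood test, adjusted p below 0.05), in each case more positive in BON-1 than in QGP-1 cells. The differences in log2 fold change were 0.78 for NDUFA4, 0.76 for NDUFB5, 0.69 for NDUFS4, 0.66 for NDUFC2, 0.56 for NDUFB9, 0.56 for NDUFV2, 0.51 for NDUFB6, 0.47 for NDUFAF5, 0.45 for NDUFA6 and 0.43 for NDUFA9. They fall into genes lower in QGP-1 cells alone (NDUFA6, NDUFA9, NDUFB5 and NDUFB9), genes higher in BON-1 cells alone (NDUFA4, NDUFB6, NDUFC2, NDUFV2 and NDUFAF5) and NDUFS4, called in both. Leaving out 1 library ended the calls of NDUFA9, NDUFB6, NDUFB9, NDUFC2 and NDUFAF5 in at least 4 of 12 fits each.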

How the results depend on the processing

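The counts of the deposited table were scaled in several ways, and the TPM scale turned the most directions. In the TPM values RN7SK, RN7SL1 and RN7SL2, abundant noncoding RNAs, took 78.8% to 80.3% of the total in QGP-1 vehicle libraries and 71.2% to 75.4% with DOX, and 50.9% to 65.6% and 53.4% to 74.3% in BON-1 libraries. With limma on TPM the median over all genes was 0.59 on the log2 scale in QGP-1 and −0.31 in BON-1 cells. Of all genes, 89 were called lower and 9149 higher of 10561 in QGP-1 cells, and 335 and 34 of 11954 in BON-1 cells. Of 38 subunits on this scale, 0 were called lower and 24 higher in QGP-1 cells with a median of 0.40. In BON-1 cells 1 was called lower and 0 higher with a median of −0.46. The NDUFAF genes were called in 5 and 0 cases with medians of 0.62 and −0.080. Among the members reported by name, those whose log2 fold change turned in QGP-1 cells on that scale were NDUFB4 0.035, NDUFB9 0.13, NDUFA8 0.17, NDUFB8 0.19, NDUFA6 0.20, NDUFS8 0.21, NDUFA9 0.23, NDUFC1 0.23, NDUFS3 0.24, NDUFA11 0.24, NDUFB3 0.29, NDUFS4 0.31, NDUFB11 0.35, NDUFS7 0.38, NDUFA3 0.39, NDUFV1 0.39, NDUFA7 0.41, NDUFS5 0.41, NDUFS1 0.44, NDUFB10 0.45, NDUFAB1 0.48, NDUFA1 0.49, NDUFA12 0.49, NDUFA4 0.52, NDUFB2 0.54, NDUFV2 0.54, NDUFV3 0.56, NDUFA10 0.56, NDUFA5 0.56, NDUFAF1 0.57, NDUFB6 0.58, NDUFAF4 0.59, NDUFA2 0.61, NDUFAF5 0.62 and NDUFB1 0.67. In BON-1 cells NDUFS4 −0.10, NDUFAF4 −0.082 and NDUFV2 −0.0067 turned.

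Removing the length trend left 9 QGP-1 subunits lower and 1 higher (median −0.10), beside 2305 lower and 2282 higher of all 15089 genes. It called 2 NDUFAF genes and gave a BON-1 subunit median of −0.038. It turned NDUFB10 0.0092, NDUFS5 0.028 and NDUFB1 0.43 in QGP-1 cells. Removing length and GC trends together left 11 QGP-1 subunits lower and 1 higher (median −0.11), beside 2557 lower and 2624 higher of all 15089 genes. It called 2 NDUFAF genes and gave a subunit median of −0.047 in BON-1 cells. In QGP-1 cells it turned NDUFB10 0.047, NDUFS7 0.058 and NDUFB1 0.39. Removing the GC trend alone left 1 NDUFAF call in BON-1 cells. Scaling by library size gave 14 BON-1 subunits lower in place of 8, beside 3149 lower and 2030 higher of all 14625 genes tested. A minimum log2 fold change of 0.5 left 8 QGP-1 subunits lower, and 4 lower, 2 higher and 1 NDUFAF gene in BON-1 cells. The GC removals were added after seeing the data.

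Leaving out each library in turn gave 17 to 23 QGP-1 subunits lower and 0 to 0 higher (median −0.34 to −0.27), and 6 to 11 lower and 3 to 6 higher in BON-1 cells (median −0.18 to −0.09). The NDUFAF calls were 0 to 0 in QGP-1 (median −0.05 to 0.06) and 1 to 3 in BON-1 cells (median 0.15 to 0.29). Subunits with a different response in the lines numbered 5 to 14, with 14 without QGP-1 DOX replicate 1 and 5 without QGP-1 DOX replicate 2 or BON-1 vehicle replicate 1, and those different with vehicle 31 to 34. The 3 BON-1 subunits higher were found without vehicle replicate 1, and the single NDUFAF call without vehicle replicates 1 or 3.

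With the replicate number as a replicate block, 22 QGP-1 subunits were lower and 0 higher, 8 and 5 in BON-1 cells, and 11 differed between the lines, each within 1.5 times the value without it. Same-numbered vehicle and DOX libraries had correlations of deviations from −0.014 to 0.039 in QGP-1 and −0.006 to 0.043 in BON-1 cells, so the numbers were not taken to pair them. DESeq2, 2 other filters on low counts and 1 fit of both lines kept each of these counts within 1.5 times. In BON-1 cells, however, DESeq2 called 0 NDUFAF genes lower where edgeR called 1, and 5 of the 6 subunits lower in both lines. The cause of the changes beyond the values given was not tested. Depth limits NDUFAF8 and NDUFA4L2 most, which had under 130 counts in each library.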
